A study of Mus musculus with 4 samples.

Results

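Cxcl14 encodes a secreted CXC chemokine, and it is 1 of the 27998 genes counted in droplet libraries of the embryonic parotid and submandibular salivary glands. It was picked on measured values, because its counts were high in both parotid libraries and close to 0 in both submandibular libraries. The difference between the glands is therefore given below as a description and is not tested. What follows is where the transcript lay within the parotid gland, how it was spread over cells and which genes went with it.

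Chemokines are small secreted proteins that guide cell movement by binding receptors on the target cell. CXCL14 is an unusual member of the CXC family because its receptor is not settled: CXCR4, ACKR3 and GPR85 have each been proposed as partners. In mouse and human skin it is made by basal keratinocytes and by fibroblasts, and it is known for attracting monocytes and dendritic cell precursors.

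Glands were taken from ICR mouse embryos at embryonic day 12, about 10 glands of each kind pooled, and their epithelium and mesenchyme were separated and captured on the 10x Chromium system. The 4 groups are the epithelium and the mesenchyme of either gland, and each is a single library. All groups share the strain and stage, no genotype or treatment sets them apart, and the glands behind a library cannot be separated. With 1 library a group there is no replicate spread, so no p-value is given, and the 95% intervals are exact counting intervals that cover counting error only.

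Cxcl14 (ENSMUSG00000021508) lies on the minus strand at chr13:56288643-56296551 of GRCm38, and no annotated gene overlaps it. The 250 bases before its start (RefSeq, GRCm38.p6, chr13:56296552-56296801, written 5′ to 3′ on the minus strand, CpG dinucleotides in capitals) are shown because genes of DNA-binding factors, among them Tfap2b, Barx2 and Pitx1, varied with it in the results below.
Cxcl14 upstream: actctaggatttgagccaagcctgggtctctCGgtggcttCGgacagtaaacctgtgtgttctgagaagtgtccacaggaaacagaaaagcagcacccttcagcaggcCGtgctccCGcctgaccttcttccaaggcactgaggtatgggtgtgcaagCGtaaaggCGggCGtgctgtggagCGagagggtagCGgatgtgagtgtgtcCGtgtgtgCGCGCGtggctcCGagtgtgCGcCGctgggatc

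This stretch held 16 CpG dinucleotides and 59.6% G and C, against medians of 6 and 52.4% over 32851 windows of the same length before gene starts. On both strands it held no GCCNNNGGC (the core bound by AP-2 factors such as TFAP2B, present in 13.7% of the windows), no TAATTG (a homeodomain core, 7.17%) and no TAATCC (the bicoid-type core bound by PITX factors, 6.25%). It also held no TATAAA (12.4%), no GGGCGG (32.7%), no CTTTGAA (4.46%) and no CTTTGAT (3.21%). These are statements on letters in this window alone.

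The files held between 1996 and 4971 barcodes and between 14004908 and 39621166 unique molecular identifiers (UMIs, which count RNA molecules rather than reads) per library. After barcodes under 500 genes or over 10% mitochondrial UMIs were removed, 14884 of 15351 remained. Clusters made without Cxcl14 were named from marker lists: 1762 epithelial-like cells in parotid epithelium, 3908 mesenchymal-like cells in parotid mesenchyme, 3608 epithelial-like cells in submandibular epithelium and 4226 mesenchymal-like cells in submandibular mesenchyme, at median depths of 7121, 5561.5, 9835 and 5269.5 UMIs. Of the 15351 barcodes, 120 sequences occurred in more than 1 library. The 16 shared by parotid and submandibular epithelium carried 116 Cxcl14 UMIs in the parotid library and 0 in the submandibular library. The 10 shared by parotid epithelium and submandibular mesenchyme carried 31 and 1. Those that parotid mesenchyme shared with either submandibular library carried 0 on the submandibular side. Doublets were not called. Without the 5% of barcodes of each library with most UMIs, 1664 parotid and 3413 submandibular epithelial-like cells remained, and the epithelial ratio below was 1001. The mesenchymal ratio was 488, but 3891 of 3908 parotid and 4196 of 4226 submandibular mesenchymal-like cells remained. Few mesenchymal-like cells were left out, so that ratio could hardly change and says little about doublets.

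Cxcl14 was abundant in both parotid tissues. Epithelial-like cells of the parotid library held 12714 Cxcl14 UMIs, or 954 CPM (UMIs of the gene scaled to 1e+06 UMIs in all; 95% interval 937 to 971). Mesenchymal-like cells of the parotid library held 13508 UMIs, or 571 CPM (561 to 580). The corresponding submandibular cells held 40 UMIs (1.05 CPM, 0.747 to 1.42) in the epithelium and 30 UMIs (1.23 CPM, 0.832 to 1.76) in the mesenchyme. Both parotid values lay far above both submandibular values, the parotid epithelium was the highest of the 4, and the intervals of both submandibular libraries overlapped.

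The ratio of parotid to submandibular CPM was 912 in the epithelium (669 to 1277) and 463 in the mesenchyme (324 to 686). A stricter barcode filter, 2000 genes and 5% mitochondrial UMIs, left 895 and 2110 epithelial-like cells and gave 596 (422 to 873), from 747 CPM in the parotid and 1.25 CPM in the submandibular epithelium. Within the parotid gland, the epithelium stood 1.67 times above the mesenchyme (1.63 to 1.71), and this smaller ratio ranged from 1.27 under the stricter filter to 2.14 with no filter.

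In the submandibular libraries the transcript was seen mostly as single molecules. Of the 36 submandibular epithelial barcodes with Cxcl14, before filtering, 32 had 1 UMI and the highest had 3. Of the 20 submandibular mesenchymal barcodes with it, 13 had 1 UMI and the highest had 6. The highest submandibular cluster of the main class was a mesenchymal group of 365 cells led by Cited1 and Foxf1, at 8.65 CPM (5.21 to 13.5) with a UMI in 2.74% of its cells. That interval lay below the interval of the lowest main-class cluster of the parotid mesenchyme. With finer clustering it did not: 156 submandibular mesenchymal-like cells led by Cited1 were at 17.5 CPM (10.4 to 27.7) and the lowest parotid mesenchymal cluster at 22.7 CPM (15.3 to 32.3).

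Transcripts from broken cells can enter any droplet, so the levels of other cell classes of the same library are given beside the low values. Erythroid-like cells of the parotid mesenchyme library held 22.9 CPM (15.1 to 33.3), with a UMI in 23.2% of 69 cells at a median depth of 16904 UMIs. Skeletal muscle-like cells held 17.4 CPM (13.4 to 22.2), in 13.2% of 234 cells at 15487.5 UMIs. Endothelial-like cells held 17.4 CPM (8.70 to 31.2), in 9.52% of 63 cells at 8147 UMIs. These 3 classes had overlapping intervals. How much of them came from free RNA was not tested, and mesenchymal levels of this size are not read here as expression. The same classes in the submandibular mesenchyme library were between 0 and 0.771 CPM.

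The parotid epithelium library had no such class. Its lowest level was found with finer clustering, a group of 40 epithelial-like cells with 2 Cxcl14 UMIs, at 5.61 CPM (0.679 to 20.3). The mesenchyme library also caught 122 epithelial-like cells, which held 114 CPM (94.4 to 136) with a UMI in 35.2% of cells. That is above the erythroid-like level of the same library and below the epithelial-like cells of the epithelium library.

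The transcript was not spread evenly over the epithelial-like cells of the parotid. A UMI was found in 800 of 1762 cells, 45.4% (43.1 to 47.8), where an even spread of the same UMIs over total depth would put 1 in 99.0% of cells. In the mesenchyme it was found in 2398 of 3908 cells, 61.4% (59.8 to 62.9), where an even spread would give 94.6%. In the submandibular epithelium the observed share, 0.942%, was close to the 1.10% of an even spread, and in the submandibular mesenchyme it was 0.426% against 0.707%.

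Shares depend on depth, so each cell was thinned to 3000 UMIs, which left out 81, 114, 13 and 148 cells in the order above. Cxcl14 was then found in 40.9% of parotid epithelial-like cells (687 of 1681) and 52.8% of parotid mesenchymal-like cells (2002 of 3794), against 0.278% and 0.221% in the submandibular libraries. The share with any UMI was thus larger in the mesenchyme, but cells with 1 UMI were 16.6% of the mesenchyme and 5.47% of the epithelium. How many of these single UMIs came from free RNA was not tested. Thinned to 1500 UMIs, the shares were 39.2% (37.7 to 40.8) in mesenchyme and 36.6% (34.4 to 38.9) in epithelium, with overlapping intervals. Higher counts were more frequent in the epithelium. There 25.6% of epithelial-like cells reached 5 UMIs against 12.5% of mesenchymal-like cells, and 13.7% against 2.53% reached 10. Among cells with any Cxcl14 the median was 6 UMIs in the epithelium and 2 in the mesenchyme.

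**Figure D1:**
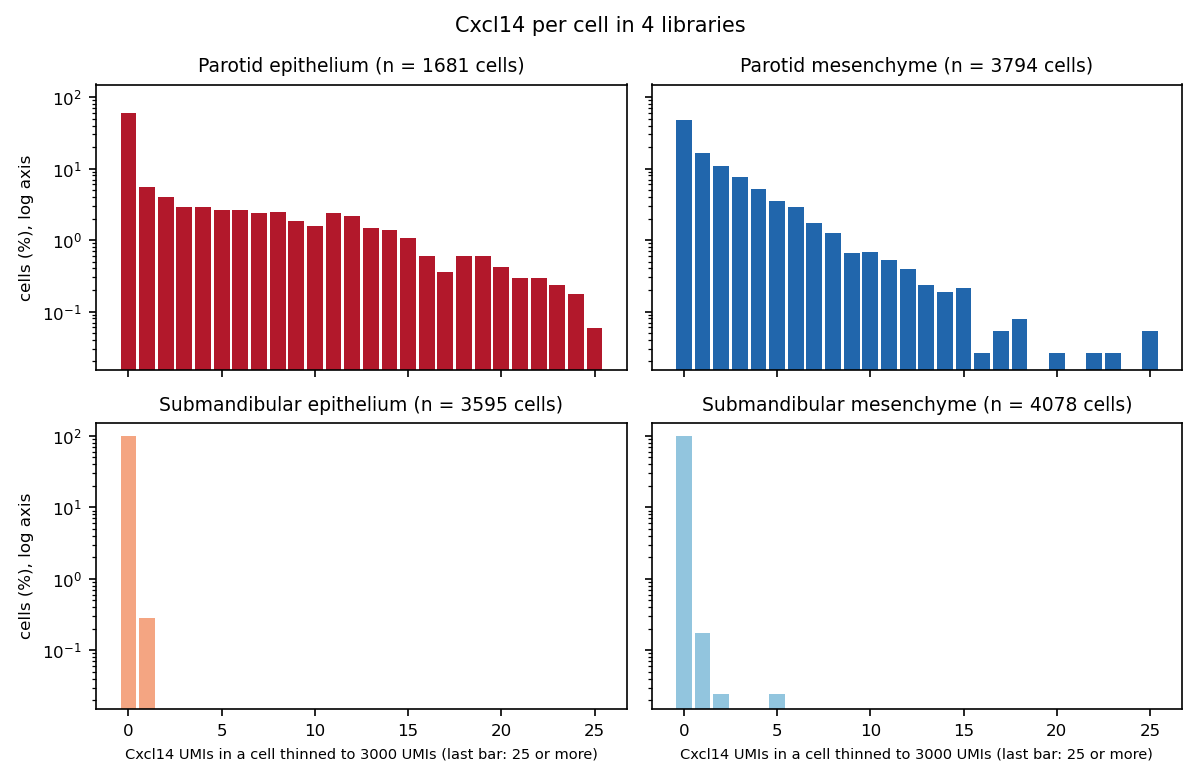
Percent of main-class cells (log axis) by Cxcl14 UMIs after thinning each cell to 3000 UMIs, 1 panel per library, with the last bar holding cells with 25 or more. The parotid epithelium has 59.1% of cells at 0 and a broad shoulder to 27 UMIs, the parotid mesenchyme falls away steadily from 0, and the submandibular libraries lie almost wholly at 0.

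The plot of UMIs per cell shows this difference in shape. The variance of the thinned counts was 8.51 times their mean in the parotid epithelium and 4.30 times in the mesenchyme, while 1 is the value of purely random capture from identical cells. The 169 epithelial-like cells with the most Cxcl14 held 50.05% of its thinned UMIs, and the 380 such mesenchymal-like cells held 46.6%. Cluster membership, made without Cxcl14, accounted for 66.4% of the variance of log2(thinned count + 1) over 12 epithelial clusters and for 18.7% over 11 mesenchymal clusters.

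Among the 12 epithelial clusters Cxcl14 ranged from 39.6 to 3418 CPM. The highest was cluster 1, 91 cells led by the homeobox-locus RNA Hotairm1 and the gap junction gene Gjb2, at 3418 CPM (3256 to 3586). Cluster 12, led by Lmo1, Gjb6 and Irx4, followed at 3143 CPM (3023 to 3267) and its interval overlapped that of cluster 1. Cluster 0, led by Lhx2, Nrp2, Wif1 and Shh, had 2736 CPM (2626 to 2850), and cluster 7, led by Lmo1, Phlda2 and Irx2, had 2699 CPM (2591 to 2811). Clusters 0 and 7 overlapped each other and lay below clusters 1 and 12. In these 4 clusters 99.0% to 100% of cells had a Cxcl14 UMI.

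Cluster 9 came next at 1609 CPM (1544 to 1676), with the transcript in 75% of 252 cells. Macrophage markers (C1qa, C1qb, C1qc, Tyrobp, Fcer1g) were among its top genes. In it 2 cells had at least 3 macrophage markers, and without those cells its level was 1639 CPM. How many of the marker UMIs those cells held is not given. Together these 5 clusters held 36.3% of the epithelial-like cells and 88.0% of their Cxcl14 UMIs. The level of cluster 9 depended on resolution. With finer clustering, a group led by Gjb2, Gjb6 and Hotairm1 had 164 cells at 3422 CPM. A group with Anxa8 and Wnt7b among its top genes had 178 cells at 476 CPM, with the transcript in 51.1%. The macrophage markers then led 134 cells at 680 CPM.

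The middle of the order was taken by cycling and mixed cells. Cluster 6, led by DNA synthesis genes, had 449 CPM (420 to 479) with the transcript in 37.2% of 242 cells, and cluster 8, led by mitosis genes and Fgf8, had 179 CPM (157 to 203) in 19.2% of 130 cells. Cluster 11 had 193 CPM (162 to 228), which overlapped cluster 8. Its top genes were the mesenchymal genes Lum, Col3a1 and Prrx1, 11 of its 109 cells had at least 3 mesenchymal markers, and its level without those cells was 190.1 CPM.

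The remaining 4 clusters were low and overlapped their neighbours in the order. Cluster 5, led by Igfbp3, Ngfr and Sox10, had 71.2 CPM (59.3 to 84.8), and cluster 2, led by Gabrp and the claudin gene Cldn3, had 61.3 CPM (43.0 to 84.9). Cluster 4, led by Rprm and Foxe1, had 40.8 CPM (30.5 to 53.5), and cluster 3, led by Igfbp3, Lmcd1 and Sox10, had 39.6 CPM (29.3 to 52.3). These 4 clusters, 642 cells, held 2.07% of the Cxcl14 UMIs. The UMIs sat in fewer cells than an even spread would give, 12.5% against 34.9% in cluster 3 and 12.2% against 41.0% in cluster 5.

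The 11 mesenchymal clusters formed a flatter order. The highest was cluster 6 (451 cells, led by Fam150b, Pax1 and Hoxd1) at 1083 CPM (1045 to 1123), with the transcript in 84.3% of cells. Cluster 16 (Col8a1, Hpgd, Twist2) at 828 CPM, cluster 13 (Chodl, Pitx1) at 772 CPM, cluster 1 (Gsc, Twist2) at 761 CPM, cluster 7 (mitosis genes) at 691 CPM, cluster 10 (Pax9, Dkk2) at 681 CPM and cluster 2 (mitosis genes) at 617 CPM formed a run in which each overlapped the next. Cluster 14, led by Nefl, Nefm and Tbx18, had 540 CPM (511 to 571), and cluster 12, led by DNA synthesis genes, had 422 CPM (400 to 445).

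At this resolution a pair of mesenchymal clusters stood apart below. Cluster 5, 706 cells led by the homeobox gene Meox2 with Socs2 and Rgs2, had 121 CPM (110 to 133), with the transcript in 26.1% of cells. Cluster 11, 214 cells led by Gdf10, Msx1 and Six2, had 21.3 CPM (14.2 to 30.8) in 10.7% of cells, which is within the erythroid-like interval of the library. The 8 clusters above 500 CPM held 66.5% of the mesenchymal-like cells and 86.5% of their Cxcl14 UMIs. With finer clustering the gap was filled, with clusters at 376, 267 and 188 CPM among others. Clusters with Meox2 among their top genes were then at 416 CPM (290 cells), 157 CPM (138 cells) and 27.2 CPM (258 cells, interval 18.9 to 37.8).

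**Figure D2:**
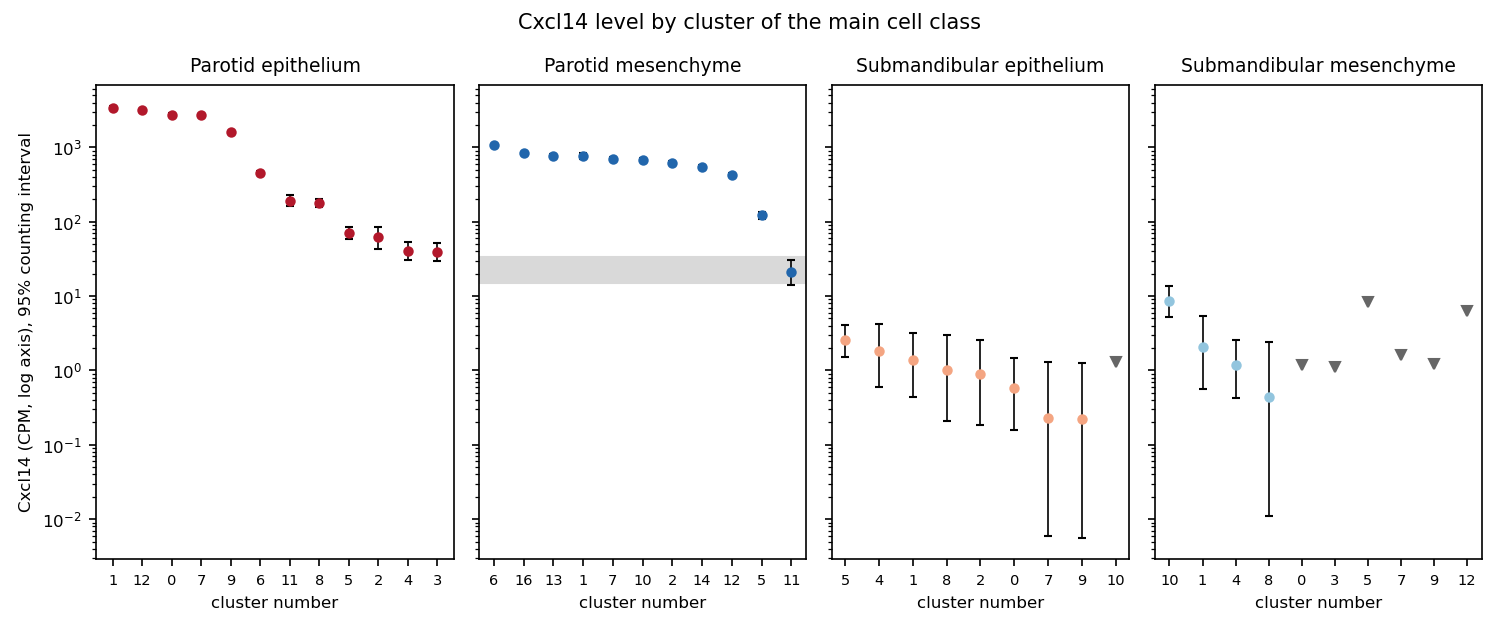
Cxcl14 CPM on a log axis in each main-class cluster of the 4 libraries, ordered by level, with exact 95% counting intervals; triangles are upper bounds of clusters with 0 UMIs, and the grey band is the erythroid-like interval of the parotid mesenchyme library (15.1 to 33.3 CPM). Epithelial clusters span 39.6 to 3418 CPM, while 9 of 11 parotid mesenchymal clusters lie between 422 and 1083 CPM.

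Over cells of the parotid epithelium, the genes most like Cxcl14 were Lmo1, Gjb6 and Tfap2b. Likeness was measured by Pearson's r of log2(thinned count + 1) over 1681 cells of 1 library, for the 5720 genes found in at least 5% of those cells. Its median was -0.006 and its 5th and 95th percentiles were -0.08 and 0.07, while 39 genes reached 0.2 and 26 reached -0.2. With all cells scaled to 10000 UMIs in place of thinning, 83 and 89 genes did so. Cells of a cluster share their whole profile, so these values are no evidence of a direct relation.

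The highest r was 0.61, for Lmo1, a LIM-only transcriptional regulator. It was followed by Gjb6 (r = 0.45) and Gjb2 (0.41), which encode gap junction connexins, by the AP-2 factor gene Tfap2b (0.44) and by the basal keratin gene Krt14 (0.41). Then came Wnt6 (0.40), a secreted WNT ligand, and Sostdc1 (0.38), a secreted BMP and WNT antagonist. The rest of the top 12 were Txndc17 (0.37), the matrix proteoglycan gene Dcn (0.33), Itm2b (0.32), Skap2 (0.32) and the Iroquois homeobox gene Irx2 (0.31).

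The lowest r was -0.55, for Barx2, a homeobox gene known from mouse salivary and lacrimal gland epithelium. Pitx1, a homeobox gene of the oral ectoderm, had -0.36, and Igfbp3, which encodes a binding protein of insulin-like growth factors, had -0.32. Ifitm3 (-0.29), Meg3 (-0.28), Cnn3 (-0.28), the retinoic acid binding protein gene Crabp2 (-0.27) and Nnat (-0.27) completed the lowest 8.

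The epithelial-like cells caught in the mesenchyme library allowed the same genes to be read in cells not used to rank them. After thinning, 117 such cells remained. There 9 of the 12 highest genes had a positive r and 7 of the 8 lowest a negative r, with 0.34 for Lmo1, 0.30 for Sostdc1, -0.19 for Barx2 and -0.16 for Pitx1. Most of the other values were under 0.1 in size, and Krt14 (-0.08), Irx2 (-0.08), Itm2b (-0.02) and Nnat (0.07) had the opposite sign. Txndc17, counted as positive, was at 0.0006. The share of all genes with either sign in these cells is not given, so the counts of signs are not read as agreement.

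In the mesenchyme the correlations were weak. Of 5945 genes, 7 reached 0.2 and 4 reached -0.2 over 3794 cells, and 27 and 15 did so with scaled counts. The highest were Vgll3 (0.24), a cofactor of TEAD transcription factors, Lmcd1 (0.24), Osr2 (0.24), the chemokine gene Cxcl12 (0.23) and Tbx15 (0.22), and the lowest were Meox2 (-0.27), Socs2 (-0.25), Rgs2 (-0.22) and Ldha (-0.21). Ifitm1 (0.21), the ephrin receptor genes Epha4 (0.21) and Ephb3 (0.19), Fstl1 (0.20), Lix1 (0.20), Twist2 (0.19) and Igfbp3 (0.19) stood beside the first group, and Mest, Mpped2, Gas2 (each -0.20) and Barx1 (-0.19) beside the second. In sparse counts values of this size are no finding on their own. In the submandibular libraries the transcript was too rare for any correlation.

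**Figure D3:**
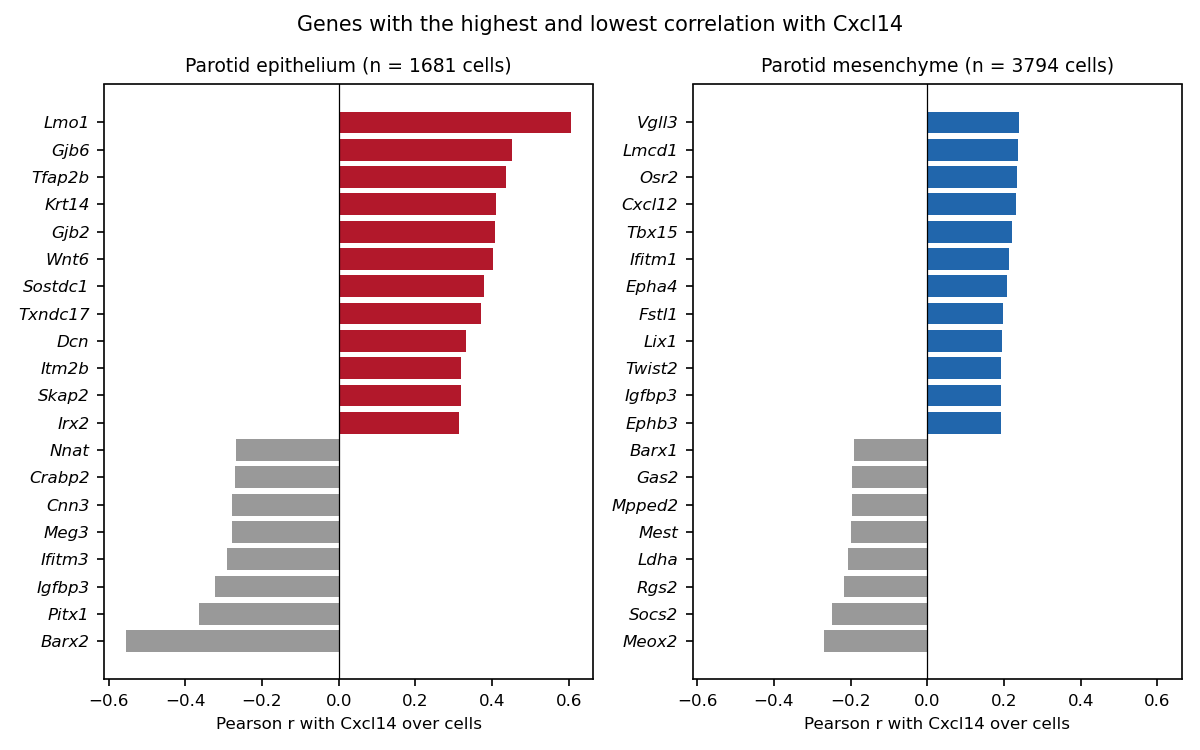
Pearson r with Cxcl14 over thinned cells for the 12 highest and 8 lowest genes in each parotid library (1681 epithelial-like and 3794 mesenchymal-like cells). Epithelial values run from -0.55 for Barx2 to 0.61 for Lmo1, and mesenchymal values from -0.27 for Meox2 to 0.24 for Vgll3.

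The levels by cluster show how these genes divided the epithelium. Lmo1 was at 270 CPM in cluster 1, 605 in cluster 12, 354 in cluster 0 and 682 in cluster 7, and between 13.6 and 21.5 CPM in the 4 clusters lowest in Cxcl14. Barx2 took the reverse order, between 28.6 and 51.2 CPM in the 4 clusters highest in Cxcl14 and at 845 CPM in cluster 4. The Cxcl14-rich clusters differed among themselves: Gjb2 was at 1663 CPM in cluster 1 and 46.2 in cluster 0, whereas Nrp2, a coreceptor of semaphorins and VEGF, was at 342 CPM in cluster 0 and 4.09 in cluster 1.

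**Figure D4:**
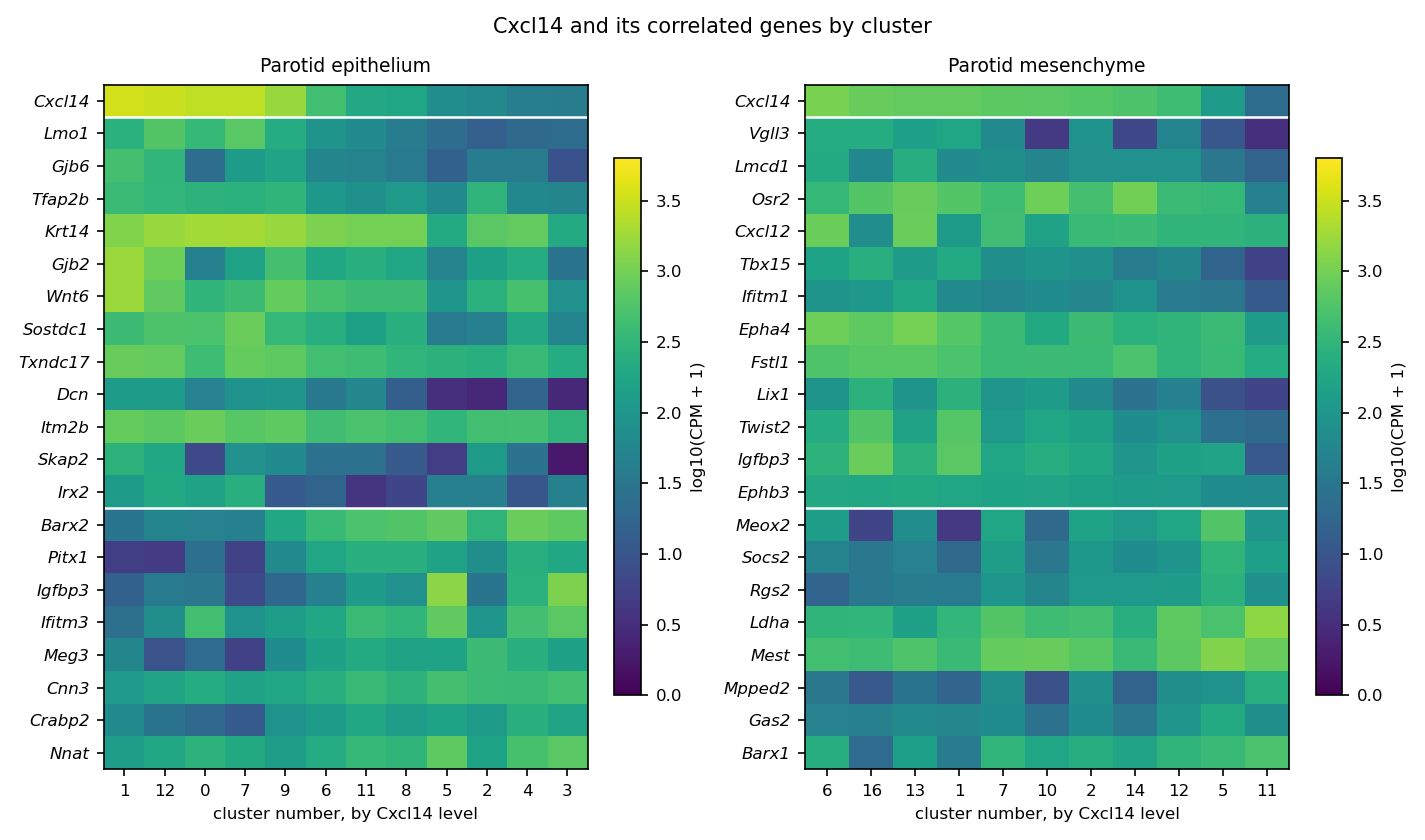
Level of Cxcl14 and of its 12 highest and 8 lowest correlated genes, as log10(CPM + 1), in the clusters of each parotid library ordered by Cxcl14. In the epithelium Lmo1 and Tfap2b are brightest at the Cxcl14-rich end and Barx2 and Pitx1 at the other, and in the mesenchyme the steps are shallower.

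Cells were then divided by Cxcl14 itself. In the thinned epithelium 431 cells had at least 5 Cxcl14 UMIs (called high here) and 994 had none. Median depth before thinning was 6894 UMIs in high and 7419 in zero cells, and the median mitochondrial share 5.23% and 4.61%; the part of either in what follows was not tested. A gene was counted as different where its larger summed level reached 50 CPM and the levels differed at least 2-fold. Of 3019 genes so measured, 60 were higher in high cells (1.99%) and 69 were lower (2.29%), the median gene differing by -0.05 on the log2 scale.

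Lhx2, a LIM homeobox gene active in mouse hair placodes, had 109 UMIs (84.3 CPM) in high cells and 0 in zero cells. Set against a floor of 3 UMIs over the zero cells, its ratio was 83.8, and the exact counting interval of the ratio began at 67.0. Nrp2 had 97 and 2 UMIs, a ratio of 112 (30.1 to 937). Lmo1 was at 472 CPM in high and 25.8 CPM in zero cells, 18.3-fold higher (14.4 to 23.5). Gjb6 was at 276 and 25.5 CPM, 10.8-fold higher (8.44 to 14.1). By cluster, Lmo1 was between 228 and 682 CPM in all 5 Cxcl14-rich clusters, whereas Lhx2 and Nrp2 were at 437 and 342 CPM in cluster 0 and at most 16.2 CPM in any other epithelial cluster.

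The other genes among the 10 highest ratios were Lrrtm1 (18.7-fold), Phlda2 (10.9), the proteoglycan gene Dcn (8.58), the sulfotransferase gene Chst2 (8.26), the Iroquois gene Irx4 (7.72) and Skap2 (7.19). All 10 were at or below 25.8 CPM in zero cells. They passed the minimum of 50 CPM only through high cells, which favours large ratios. Dcn is also a mesenchymal marker, and the 15 mesenchymal markers summed to 245 CPM in high and 165 CPM in zero cells. Without Dcn the sums were 121 and 150.2 CPM, and Pdgfra, Twist2 and Meox1 were at 0 in high cells. The part of mesenchymal transcripts in the Dcn value was not tested.

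The genes lower in high cells were led by Igfbp3, at 21.7 CPM in high and 492 CPM in zero cells, 22.7-fold lower (15.6 to 34.3). Barx2 was at 42.5 and 649 CPM, 15.3-fold lower (11.7 to 20.3), and Pitx1 at 12.4 and 204 CPM, 16.5-fold lower (10.1 to 29.1). Cell by cell, Barx2 was found in 10.4% of high and 75.5% of zero cells, Pitx1 in 3.25% and 41.9%, and Lmo1 in 69.8% and 7.04%. Cldn3 (21.8-fold), Fgf8 (17.2), Gabrp (14.8), Anxa1 (7.13), Sema6a (6.66) and the FGF feedback inhibitor gene Spry2 (6.50) were also among the 10 largest. These lower genes passed the minimum of 50 CPM only through zero cells, which likewise favours large ratios.

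**Figure D5:**
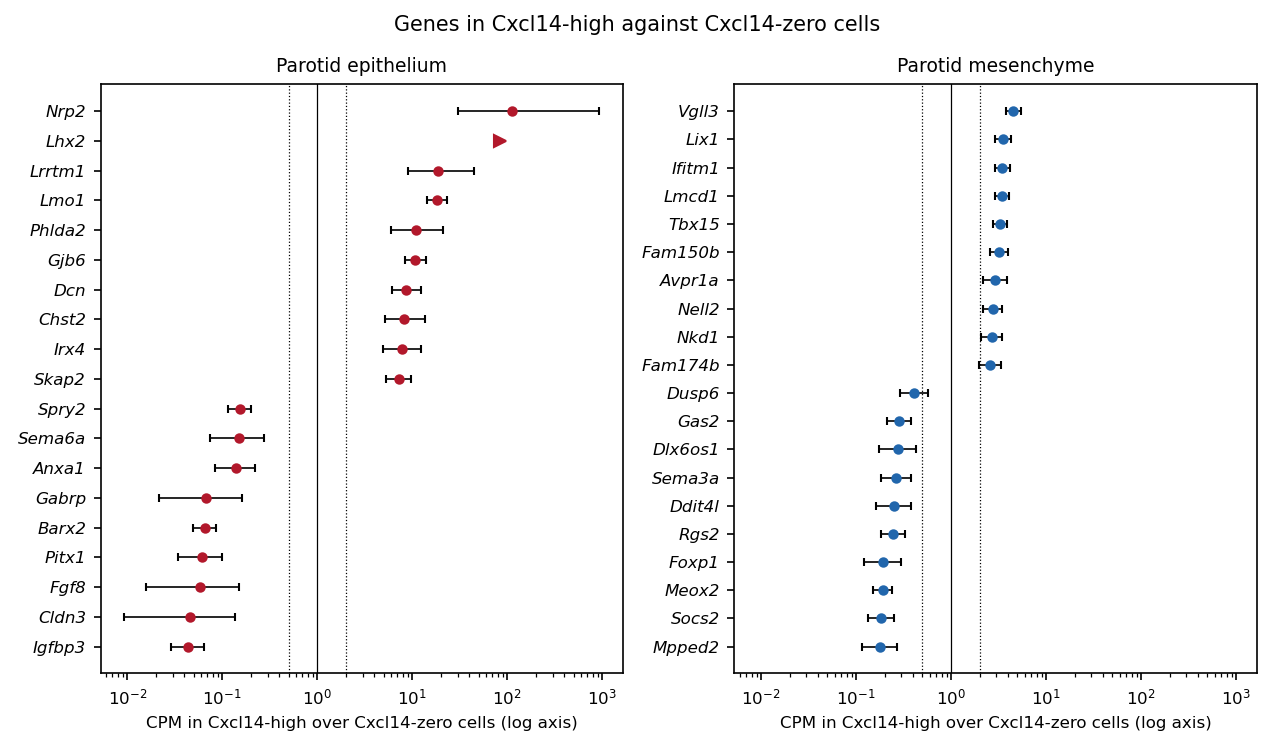
Ratio of summed CPM in Cxcl14-high over Cxcl14-zero cells (log axis) for genes among the 10 highest and 10 lowest in each parotid library. Counting intervals of 95% are drawn, with dotted lines at 2-fold each way. A triangle marks Lhx2 at its ratio against the floor of 3 UMIs (83.8), which is not an interval bound. Epithelial ratios reach past 100 for Nrp2, whereas the largest mesenchymal ratio is 4.55 for Vgll3.

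Gene lists were read over the members found in at least 5% of all thinned cells, whatever their level in either group, because a minimum of 50 CPM admits some genes only through the group where they are high. This reading was added after the values were seen. Of 5720 genes so found in the epithelium, 84 were at least 2-fold higher in high cells (1.47%) and 157 at least 2-fold lower (2.74%), with a median of -0.05 on the log2 scale. Of 11 basal epidermal genes 10 were found, 6 of them 2-fold higher and 0 lower, with a median of 1.07. The higher ones were Krt5 (2.01-fold), Krt14 (2.26), the basal regulator gene Trp63 (2.64), the integrin gene Itga6 (2.21), Dst (3.66) and Tfap2b (4.56), while Krt15 was at 1.72-fold and Col17a1 at 1.76-fold. Of 12 placode genes only 3 were found, Lef1 (2.26-fold higher), Wnt10a (3.49) and Sostdc1 (3.73). Of 12 periderm and stratification genes 7 were found, of which Gjb2 (5.32-fold) and Gjb6 were higher and 1 was lower.

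Of 10 FGF response genes 7 were found, 6 lower in high cells and 1, Spred1, within 2-fold (23.2 CPM in high and 38.6 CPM in zero cells). The lower ones were Etv4 by 3.16-fold, Etv5 by 5.71, Spry1 by 2.70, Spry2 by 6.50, the phosphatase gene Dusp6 by 2.93 and Il17rd by 7.25. Etv4 and Etv5 also stand on the end bud list, on which 6 of 10 genes were found: they, Sox9 (5.66-fold) and Sox10 were lower, and Fgfr2 (2.64-fold) and Mycn (3.01) were higher. Sox10 was found in 0.232% of high and 8.35% of zero cells. Of 11 duct genes 10 were found, with 5 lower, among them the keratins Krt8 (5.91-fold), Krt18 (4.01) and Krt19 (2.64), 1 higher, Wnt7b (2.68-fold), and 4 within 2-fold.

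Of 14 retinoic acid genes 6 were found and 3 were lower, among them Crabp2 (5.13-fold) and Cyp26a1 (2.42). Of 14 oral and facial ectoderm factors 7 were found, with 3 lower, Pitx1 and Pax9 among them, and 1, Irx2 (6.99-fold), higher. Of 11 WNT response genes 2 were found, Lef1 and Znrf3 (2.33-fold higher). Of 4 hedgehog response genes found, Ptch1 was higher, at 46.4 CPM in high and 7.38 CPM in zero cells. None of 18 proliferation genes or 6 BMP genes found differed 2-fold, and of 14 immediate early and heat shock genes 1, Hspa1a (2.48-fold), was lower.

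In the mesenchyme 474 cells were high and 1792 had no Cxcl14 after thinning, at median depths of 5606.5 and 5577 UMIs. Of 3062 genes measured, 22 were higher in high cells (0.718%) and 21 lower (0.686%), with a median difference of 0.04 on the log2 scale. Vgll3 was at 200.4 CPM in high and 44.1 CPM in zero cells, 4.55-fold higher (3.81 to 5.42). Tbx15, a T-box gene of craniofacial and limb mesenchyme in the mouse, was at 181 and 54.9 CPM, 3.29-fold higher (2.77 to 3.91). Lix1 (3.51-fold), Ifitm1 (3.48), Lmcd1 (3.46), Fam150b (3.21), Avpr1a (2.91), Nell2 (2.75), the WNT feedback gene Nkd1 (2.69) and Fam174b (2.57) were the others of the 10 highest. Among these 10, only Lmcd1 and Tbx15 also reached 50 CPM in zero cells.

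Meox2 was at 54.1 CPM in high and 284 CPM in zero mesenchymal cells, 5.25-fold lower (4.17 to 6.68). Socs2, a suppressor of cytokine signalling, was at 33.1 and 178 CPM, 5.39-fold lower (4.02 to 7.38). Mpped2 (5.57-fold), Foxp1 (5.14), Rgs2 (4.04), Ddit4l (3.94), Sema3a (3.74), Dlx6os1 (3.60), Gas2 (3.49) and Dusp6 (2.44) were the others of the 10 largest among the 21. Among these 10, only Meox2 also reached 50 CPM in high cells. Meox2, Socs2 and Rgs2 are leading genes of cluster 5, which was low in Cxcl14 as a whole.

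Of 5945 genes found in at least 5% of mesenchymal-like cells, 29 were at least 2-fold higher in high cells (0.488%) and 53 lower (0.892%), with a median of 0.03 on the log2 scale. Of 34 regional factors of the mesenchyme 21 were found. Pax1 (2.09-fold), Tbx15 and Twist2 (2.27-fold) were higher in high cells, 5 were lower, among them Msx1 (2.15-fold), Barx1 (2.27) and Dlx5 (2.26), and 13 lay within 2-fold. Of 11 WNT response genes 3 were found: Lef1 (2.27-fold) and Nkd1 (2.69) were higher, while Axin2 was at 33.1 CPM in high and 30.1 CPM in zero cells. Of 5 FGF response genes found Dusp6 was lower, of 9 BMP genes Msx1 and of 7 retinoic acid genes Rarb (5.26-fold). None of 15 interstitial matrix genes, 17 proliferation genes or 13 immediate early and heat shock genes found differed 2-fold.

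The gene was also set beside all others that were higher in parotid in both tissues. By the rule of at least 50 CPM in either gland and 2-fold, 85 of 3015 genes (2.82%) were higher in parotid than in submandibular epithelium. In mesenchyme 117 of 3267 (3.58%) were. Of 2424 genes with at least 50 CPM in parotid in both tissues, 10 (0.413%) were higher in parotid in both, 2 of them unnamed gene models. Entry here was through the parotid level alone, so this share is not on the same set of genes. Cxcl14 was one of the 10, but it had been picked for its parotid-only pattern, so its place among them is no finding. Next by the smaller of both ratios was the unnamed gene model Gm10320, at 16.6-fold in epithelium and 6.40-fold in mesenchyme. Among named genes Pop4, a ribonuclease subunit gene, came next at 2.73-fold in epithelium and 3.08-fold in mesenchyme. It was followed by Cyr61 (2.60 and 2.77), Smoc2 (2.51 and 11.5) and Epha4 (2.34 and 3.51). Jund (2.95 and 2.15), Stmn1 (2.05 and 2.04) and Sepw1 (2.32 and 2.03) were the other named genes. In the smaller ratio Cxcl14 stood at 463, Gm10320 at 6.40 and Pop4 at 2.73. Scaling by TMM moved all log2 ratios by -0.10 in the epithelium and by 0.12 in the mesenchyme. It again gave 10 genes, 8 of them the same. Stmn1 (1.92-fold in the epithelium) and the other unnamed gene model fell short of 2-fold, and Sema3a and Junb came in.

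Of the 30 chemokine ligand genes in the files, 3 reached 20 CPM in a main class: Cxcl14, Cxcl12 and Cxcl13. Cxcl12 was at 419 CPM in parotid and 299 CPM in submandibular mesenchyme and at 6.75 and 4.84 CPM in the epithelia, and Cxcl13 at 62.3 CPM in submandibular mesenchyme. Of 23 receptor and partner genes, 2 reached it: Ackr3, the atypical receptor of CXCL12, at 35.7 CPM in parotid epithelium, 17.9 in parotid mesenchyme, 4.84 in submandibular epithelium and 16.6 in submandibular mesenchyme, and Gpr85, a proposed CXCL14 receptor, at 20.1 CPM in parotid and 6.08 CPM in submandibular mesenchyme. Cxcr4, another proposed partner, was at 2.25 CPM in parotid epithelium, 0.169 in parotid mesenchyme, 19.7 in submandibular epithelium and 0.164 in submandibular mesenchyme. Within the parotid, Cxcl12 was 2.41-fold higher in Cxcl14-high than in Cxcl14-zero mesenchymal cells.

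The levels of the 5 nearest protein-coding genes on each side of Cxcl14 were also read. On the side of lower coordinates, Neurog1 (36.5 kb away) had 0 UMIs in all 4 main classes, H2afy, a histone variant gene 152 kb away, was between 406 and 1014 CPM in all 4, and Pitx1 lay 452 kb away at 139 and 189 CPM in parotid epithelium and mesenchyme and 195 and 649.6 CPM in the submandibular tissues, so H2afy and Pitx1 were both lower in parotid than in submandibular mesenchyme (ratios 0.520 and 0.292). Tifab and Catsper3, on the same side, had at most 8 UMIs in a library. On the other side, Slc25a48 had 20, 2, 3 and 0 UMIs in the order parotid epithelium and mesenchyme, then submandibular epithelium and mesenchyme, which is a ratio of 19.1 (5.67 to 100.5) in the epithelium. Fbxl21 was between 1.28 and 3.41 CPM, and Il9 and Lect2 had at most 2 UMIs in a library. Gm3045 was not analysed here. Pitx1, the nearest well-measured regulator gene, had r = -0.36 with Cxcl14 over epithelial and 0.13 over mesenchymal cells of the parotid.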

How the data were processed

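Droplet libraries of parotid and submandibular epithelium and mesenchyme, 1 per group, were analysed. The deposited values are raw UMI counts per gene and barcode; the submitters' processing notes name Cell Ranger 2.1.1 and mm10. Other upstream settings are not given in the sources used here. Barcodes under 500 genes or over 10% mitochondrial UMIs were dropped. Each library was clustered alone without Cxcl14 (scanpy 1.11.5: 2000 variable genes, 30 components, 15 neighbours, Leiden resolution 0.8), and clusters were named from marker lists; 2 stayed unnamed. Summed counts were scaled to CPM with exact Poisson intervals, ratios with exact conditional binomial intervals and shares with Clopper-Pearson intervals at 95%. Cells were thinned to 3000 UMIs for distributions, correlations and Cxcl14-high against Cxcl14-zero sums (at least 5 against 0 UMIs). Genes with 0 UMIs were set against a floor of 3. TMM factors came from edgeR 4.0.16, and no gene test was run. No doublet caller was run. Procedures were tested on simulated counts. The gene, its lists and the rule for named genes (12 highest and 8 lowest r, 10 ratios each way, listed genes, 5 neighbours a side; ribosomal and unnamed gene models left out) were chosen with earlier results of these data known; some genes that the rule names are not reported here. Alternatives were other filters, scalings, thinning depths, cluster resolutions and size rules, and, added after seeing the data, detection in 5% of cells in place of a CPM minimum, and leaving out the 5% of barcodes with most UMIs and the clusters led by markers of another class.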

Additional observations from a re-analysis of the deposited data

Results flagged for a closer look

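In parotid epithelium, 92 barcodes stayed unnamed and entered no comparison. Their median mitochondrial share was 0.100% and their median depth 2363.5 UMIs, and they held Cxcl14 at 712 CPM (95% counting interval 608 to 828), with a UMI in 45 of them. The unnamed barcodes of the submandibular epithelium, 137 with a median mitochondrial share of 0.0810%, held 0 Cxcl14 UMIs (exact 95% interval 0 to 5.36 CPM). Against the rest of their own library, the top genes of the submandibular barcodes were haemoglobin and other erythroid genes (Hbb-y, Hba-a1, Car2, Alas2). Those of the parotid barcodes were not, so the groups differed in this ranking. Against the pooled clusters of all named classes, the parotid barcodes were led by Lmo1, Krt17 and Krt14 and the submandibular ones by Hpca, Barx2 and Ube2c. What either group is was not tested.

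Of the genes that differed by the size rule between Cxcl14-high and Cxcl14-zero cells in both parotid tissues, 2 did so in opposite directions. The number that differed in both is not given here, so these 2 are not read as a share. Dusp6, for example, was lower in high cells of both tissues. Igfbp3 was 22.7-fold lower in high cells of the epithelium and 2.18-fold higher in high cells of the mesenchyme (428 against 196 CPM). Sema3a, which encodes a secreted guidance cue, was 3.64-fold higher in high cells of the epithelium (148 against 40.6 CPM) and 3.74-fold lower in those of the mesenchyme (23.2 against 86.9 CPM). The difference between the tissues was not tested, since each is 1 library.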

How the results depend on the processing

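Of 82 alternative values, 51 moved by less than their counting interval or, for counts of genes, by less than 1.5 times, 31 moved by more and 0 reversed. The epithelial ratio was 596 under the stricter filter. The ratio of parotid epithelium to mesenchyme was 1.72 with TMM, 2.14 with no filter, 1.27 under the stricter filter, 2.103 over all kept barcodes, 1.72 without the 5% of barcodes with most UMIs and 1.61 without the clusters led by markers of another class. Shares of cells with Cxcl14 at 1500 UMIs and unthinned were 36.6% and 45.4% in parotid epithelium, 39.2% and 61.4% in parotid mesenchyme, and 0.111% and 0.942% in submandibular epithelium. The unthinned submandibular mesenchyme share was 0.426%, and over all kept barcodes of the parotid mesenchyme the share was 47.5%. The cells with the most Cxcl14, the same fraction of each library, held 52.8% of UMIs in the epithelium and 52.4% in the mesenchyme at 1500 UMIs, and 49.4% in the mesenchyme over all kept barcodes. At Leiden resolution 1.6 the lowest epithelial cluster had 5.61 CPM and the highest mesenchymal cluster 1491 CPM. Scaled counts in place of thinned ones gave 83 and 89 correlated genes in the epithelium and 27 and 15 in the mesenchyme. A 20 CPM minimum gave 147 higher and 188 lower genes in Cxcl14-high epithelial cells, 48 and 59 in mesenchymal cells, and 28 genes higher in parotid in both tissues. Detection in 5% of cells in place of a CPM minimum gave 157 lower genes in the epithelium and 53 in the mesenchyme. The stricter filter removes cells and the lower minimum admits genes by construction; for the others the cause was not tested. No paired analysis was possible because each group is 1 library and no test was run. The submandibular values rest on 40 and 30 UMIs, which sets the width of their intervals.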
